A study of Mus musculus with 8 samples.

Results

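Transcripts of the iron-dependent 2-oxoglutarate dioxygenases were followed in mouse hematopoietic stem cells exposed to the iron-binding drug eltrombopag. The group is a list of gene symbols, and no threshold on measured values enters its rule: 40 genes were listed, and 38 of the 19505 measured genes matched, each through 1 probe set. They comprised 3 TET enzymes, 17 JmjC proteins, 4 hydroxylases that act on hypoxia-inducible factor (HIF), 8 ALKBH and FTO enzymes, 5 collagen hydroxylases and the ribosomal hydroxylase Ogfod1. Alkbh1 and Plod3 were not analysed here.

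Stem cells were sorted from bone marrow of mice aged 6 to 10 weeks as lineage-negative cells with c-Kit, Sca-1 and CD150 but without CD48 on the surface. All cells were cultured with stem cell factor at 100 ng/ml and an antibiotic. For 16 h they received either eltrombopag at 10 µg/ml or the vehicle, sterile water, with 4 arrays in each group, numbered 1 to 4. The comparison asks which transcripts differ after exposure to the drug. The sources used here give no strain, sex, genotype or pooling of animals. The replicates are called biological, with no word on separate animals, and the p-values reflect only how far these 8 arrays vary. Values are log2 expression from arrays, and a difference of 1 is a 2-fold change.

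These enzymes hold ferrous iron at the active site and use oxygen and 2-oxoglutarate to oxidise a substrate, releasing carbon dioxide and succinate. TET enzymes oxidise 5-methylcytosine in DNA, and most JmjC proteins remove methyl groups from histone lysines. The EGLN prolyl hydroxylases mark HIF alpha subunits for destruction by the VHL ligase. Hif1an hydroxylates an asparagine of these subunits, and that hydroxylation blocks binding of the HIF coactivators. When oxygen or iron is short, HIF accumulates and binds a short core, ACGTG or GCGTG, near its target genes. Several members are themselves known HIF targets, here Egln1, Egln3, Kdm3a, Kdm4b, P4ha1, P4ha2 and Plod2.

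The 250 bases before the transcription start of 5 of these HIF targets are shown, because the comparison asks of these members whether transcripts known to follow HIF differed. Capitals mark ACGTG or GCGTG on either strand, so that CACGT and CACGC are the same cores on the other strand. Sequences are from RefSeq (GRCm38.p6), and promoters of 32 of the 38 members were in that table.

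Egln1 (chr8:124949255-124949504, minus strand): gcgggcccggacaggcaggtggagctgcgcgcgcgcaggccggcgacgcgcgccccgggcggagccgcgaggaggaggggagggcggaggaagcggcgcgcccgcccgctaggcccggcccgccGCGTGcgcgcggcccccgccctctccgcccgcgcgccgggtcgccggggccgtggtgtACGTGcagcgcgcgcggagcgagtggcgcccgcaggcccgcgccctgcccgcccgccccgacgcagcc
Egln3 (chr12:54203875-54204124, minus strand): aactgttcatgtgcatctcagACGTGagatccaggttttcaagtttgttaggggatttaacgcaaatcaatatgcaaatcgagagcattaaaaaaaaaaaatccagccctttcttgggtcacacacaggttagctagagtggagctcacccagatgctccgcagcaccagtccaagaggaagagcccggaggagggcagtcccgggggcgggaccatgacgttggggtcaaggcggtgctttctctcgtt
Kdm3a (chr6:71632918-71633167, minus strand): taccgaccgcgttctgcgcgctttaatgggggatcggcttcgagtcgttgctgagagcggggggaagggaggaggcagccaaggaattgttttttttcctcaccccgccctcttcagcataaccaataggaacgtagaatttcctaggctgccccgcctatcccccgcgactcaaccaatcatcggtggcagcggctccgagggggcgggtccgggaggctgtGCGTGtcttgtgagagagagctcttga
P4ha1 (chr10:59323046-59323295, plus strand): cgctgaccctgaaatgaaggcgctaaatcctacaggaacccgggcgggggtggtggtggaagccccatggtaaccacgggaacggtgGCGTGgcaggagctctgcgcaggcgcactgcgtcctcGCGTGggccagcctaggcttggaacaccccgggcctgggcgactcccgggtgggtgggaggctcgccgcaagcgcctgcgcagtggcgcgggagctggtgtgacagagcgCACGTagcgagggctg
P4ha2 (chr11:54100674-54100923, plus strand): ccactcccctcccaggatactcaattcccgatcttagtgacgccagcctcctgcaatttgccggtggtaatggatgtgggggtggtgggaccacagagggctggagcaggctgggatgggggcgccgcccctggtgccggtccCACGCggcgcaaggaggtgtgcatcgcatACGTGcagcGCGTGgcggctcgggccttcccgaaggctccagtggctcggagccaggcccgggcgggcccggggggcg

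P4ha1 and P4ha2 each held 3 such cores, Egln1 held 2, and Egln3 and Kdm3a held 1. The Kdm3a window is 1 of 3 listed for that gene, and the other two held 0. Among all windows of this length, 12679 of 32851 (38.6%) held at least 1 core, and among windows of measured genes 8710 of 19143 (45.5%) did. Of the members' windows, 25 of 42 (59.5%) did. A match is a description of the letters and does not show that HIF binds there.

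The median log2 value ran from 6.75 to 6.80 over the 8 arrays. The normalization before deposit, RMA, sets arrays to a common distribution, so this closeness does not describe the samples. Correlations between arrays across genes ran from 0.9868 to 0.9933. Of the defining markers, Kit averaged 12.89 ± 0.049 (SD, n = 4) in the vehicle arrays and 12.88 ± 0.050 (SD, n = 4) in the eltrombopag arrays. Slamf1, which encodes CD150, averaged 7.01 ± 0.31 (SD, n = 4) in the vehicle arrays and 7.07 ± 0.65 (SD, n = 4) in the eltrombopag arrays. Ly6a, which encodes Sca-1, was not analysed here. Cd48 was listed at 5.96 ± 0.22 (SD, n = 4) and 6.21 ± 0.39 (SD, n = 4), above the arrays' mean lower quartile of 5.05. The mean log2 value of 8 neutrophil and monocyte markers was 6.20 to 6.72 with vehicle and 6.29 to 6.67 with eltrombopag, that of 11 lymphoid markers 5.35 to 5.43 and 5.32 to 5.46, that of 6 erythroid and megakaryocyte markers 7.89 to 8.29 and 7.89 to 8.41, and that of 11 stromal and endothelial markers 5.80 to 5.91 and 5.75 to 5.88. The 9 array-level measures tested were these marker values and the median and quartiles of all genes. Their smallest exact permutation p (two-sided) was 0.314, for Cd48, with an adjusted p of 1.0. The median and quartiles had been brought close together by RMA beforehand. In this test 4 against 4 arrays cannot go below 0.0286. The Y-linked JmjC genes Uty and Kdm5d, which are no members, were high in arrays 3 of both groups: Uty was at 7.71 and 6.98 there, against 3.02 to 3.31 in the other 6 arrays.

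No dioxygenase transcript passed the test between eltrombopag and vehicle. Of the 38 members 21 were higher and 17 lower with eltrombopag (55.3% higher, against 52.3% of all genes), with a median log2 difference of 0.013 against 0.0071 over all genes. limma called 0 of 38 members at an adjusted p under 0.05, as it called 0 of 19505 genes (0%), and every member had an adjusted p of 0.99978. A single member, Alkbh8, had an unadjusted p under 0.05, beside 3.33% of all genes. The groups overlapped in all 38 members, whereas they did not overlap in 2.12% of all genes. All 4 pairs of the same number ran in 1 direction for 5 of 38 members (13.2%), near the 12.6% of all genes: Egln2, Alkbh8 and P4ha2 were lower and Alkbh2 and Fto higher.

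The intervals were narrow enough to bound the size of any change in the array values. All 38 members had 95% intervals that lay inside 2-fold up and 2-fold down, as was the case for 98.7% of all genes. The intervals of 31 of 38 members also lay inside 1.5-fold (81.6%), against 88.0% of all genes. The 7 wider ones were Kdm8, Phf8, Egln3, Alkbh8, Fto, P4ha2 and P4ha3. These intervals are not adjusted over genes. In bulk RNA, fewer cells of a type and less RNA per cell cannot be told apart.

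**Figure D1:**
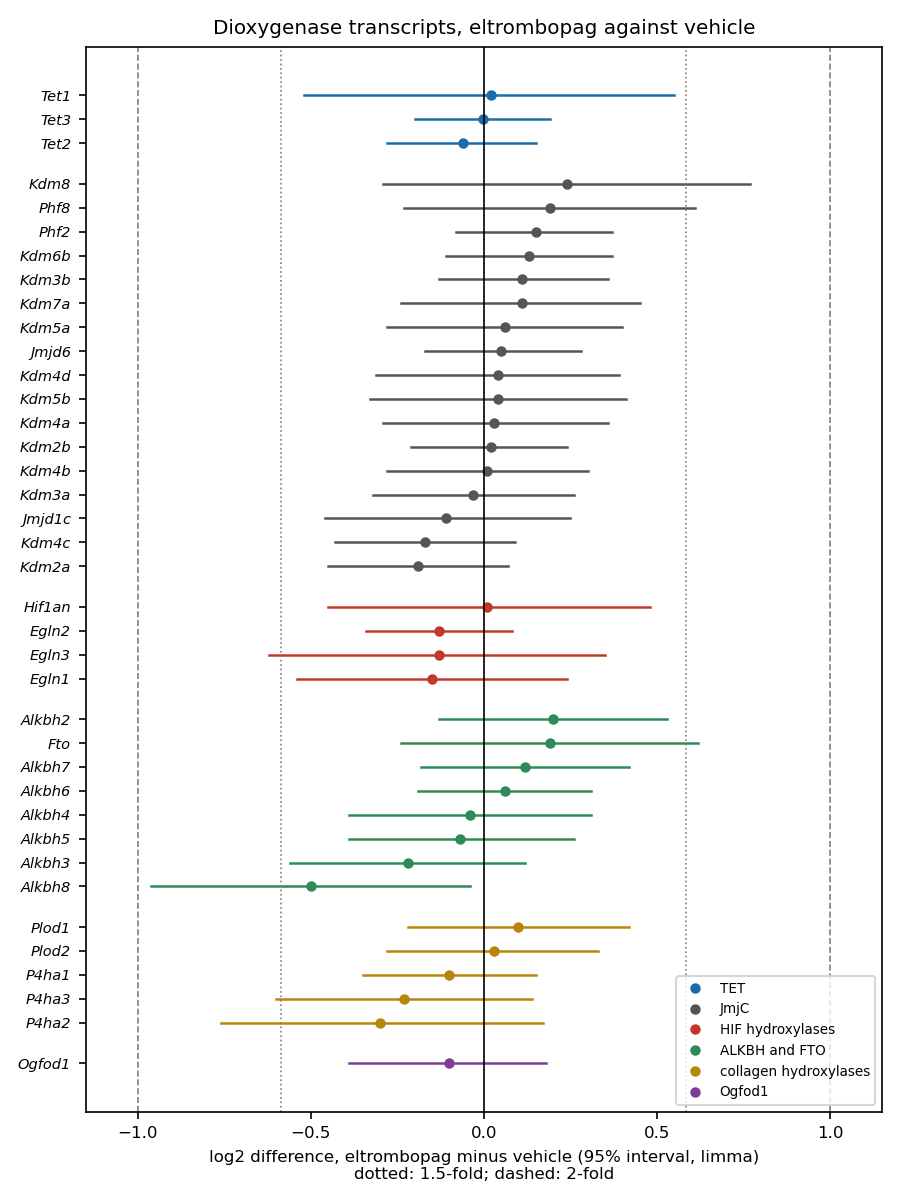
Log2 difference of each of the 38 members, eltrombopag minus vehicle, with its 95% interval from limma; colours mark the role groups, and the x axis is in log2 units. All intervals lie inside the 2-fold lines, and Alkbh8 at -0.50 is the only one whose interval (-0.96 to -0.04) leaves out 0.

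Among the TET enzymes, Tet2 and Tet3 each had a vehicle mean and an eltrombopag mean within 0.06 of each other. Tet2, which is often mutated in clonal hematopoiesis, had log2 values of 9.64, 9.73, 9.91 and 9.81 in vehicle arrays 1 to 4 and 9.61, 9.72, 9.69 and 9.82 in eltrombopag arrays 1 to 4. The eltrombopag values lay inside the vehicle range apart from array 1, which was just below it, and the difference was -0.06 (SE 0.098, interval -0.28 to 0.15). Tet3 had 9.98, 10.16, 10.04 and 9.98 with vehicle and 9.96, 10.04, 10.09 and 10.06 with eltrombopag. Its mean was 10.04 in both groups, with an interval from -0.20 to 0.19, and the sign of its difference turned with quantile normalization.

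Tet1 spread more widely between arrays than the other two. Its values were 6.59, 7.51, 7.36 and 7.08 with vehicle and 7.27, 7.71, 6.68 and 6.96 with eltrombopag. Vehicle array 1 and eltrombopag array 3 were the low ones, and the groups overlapped over most of their range. The difference was 0.02 (SE 0.24, interval -0.52 to 0.55). Pair by pair it was 0.67 for number 1, 0.20 for number 2, -0.68 for number 3 and -0.13 for number 4, and without vehicle array 1 it was -0.16.

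The JmjC proteins gave 13 of 17 genes higher and 4 lower, with a median difference of 0.043. Without vehicle array 1, which was lowest of its group for 13 of these 17 genes, 8 were higher and 9 lower, with a median of -0.035. No member of this role had an unadjusted p under 0.05, and the differences ran from -0.19 to 0.24. The smallest p-values belonged to Kdm2a and Kdm4c. Kdm2a, a demethylase that binds unmethylated CpG islands, had 8.40, 8.86, 8.69 and 8.81 with vehicle and 8.56, 8.35, 8.56 and 8.53 with eltrombopag. Vehicle array 1 was the only vehicle array within the eltrombopag range. The difference of Kdm2a was -0.19 (SE 0.12, unadjusted p 0.138), and -0.29 without vehicle array 1 (unadjusted p 0.0199, adjusted p 0.996 in limma).

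Kdm4c, which removes methyl groups from repressive histone marks, differed by -0.17 (SE 0.12). Its values were 7.93, 8.03, 7.90 and 8.07 with vehicle and 7.68, 8.11, 7.68 and 7.77 with eltrombopag. The eltrombopag arrays lay below the vehicle range except array 2, which held the highest value of all 8. Its relatives Kdm4a and Kdm4b differed by 0.03 and 0.01, and Kdm4d by 0.04 at a mean of 4.71 with vehicle, below the lower quartile of the arrays.

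Kdm3a, a HIF target and demethylase with 1 core in the promoter shown, had 9.31, 9.31, 9.67 and 9.40 with vehicle and 9.13, 9.32, 9.51 and 9.61 with eltrombopag. The groups overlapped, with eltrombopag array 1 below the lowest vehicle array, and the difference was -0.03 (SE 0.13, interval -0.32 to 0.26). Its relatives Kdm3b and Jmjd1c differed by 0.11 and -0.11. Kdm4b, another HIF target, had 6.83, 7.12, 6.94 and 7.24 with vehicle and 7.14, 7.23, 7.02 and 6.79 with eltrombopag. Array 4 was the highest vehicle array and the lowest eltrombopag array, and the interval of the difference ran from -0.28 to 0.30.

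Kdm6b, which removes the mark set by the Polycomb methyltransferase, had 10.32 to 10.75 with vehicle and 10.66 to 10.73 with eltrombopag, a difference of 0.13 (SE 0.11). Phf2, a PHD-finger demethylase, had 9.06 to 9.45 and 9.36 to 9.43, with a difference of 0.15 (SE 0.10). In both genes the eltrombopag arrays lay close together inside the vehicle range, and vehicle array 1 was the lowest. Without that array the differences were 0.04 for Kdm6b and 0.08 for Phf2. Kdm8 showed the highest difference of the role, 0.24 (SE 0.24), and most of it came from number 1, where eltrombopag minus vehicle was 1.35, against -0.32, 0.02 and -0.08 in numbers 2 to 4.

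Phf8, a demethylase encoded on the X chromosome, had 7.38, 7.80, 7.70 and 7.82 with vehicle and 7.28, 7.90, 8.16 and 8.12 with eltrombopag. Array 1 was the lowest of both groups, and the difference was 0.19 (SE 0.19). It ran from 0.09 without eltrombopag array 3 or vehicle array 1 to 0.39 without eltrombopag array 1. With numbers 1 and 2 only it was 0.0 (SE 0.25), and with numbers 3 and 4 only 0.38 (SE 0.13). Its relative Kdm7a had 8.43, 8.94, 9.13 and 9.04 in the vehicle arrays and 8.82, 8.92, 9.17 and 9.08 in the eltrombopag arrays, with array 1 again the lowest of both groups, and differed by 0.11 (SE 0.16). The remaining JmjC members lay close to 0. Kdm5a and Kdm5b, which act on the methyl mark of active promoters, differed by 0.06 and 0.04. Jmjd6 differed by 0.05 and Kdm2b by 0.02.

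The HIF hydroxylases Egln1, Egln2 and Egln3 were lower with eltrombopag by small amounts that did not pass. Egln1, the main oxygen-sensing prolyl hydroxylase, had 8.45, 8.92, 9.09 and 8.62 with vehicle and 8.88, 8.71, 8.71 and 8.18 with eltrombopag, a difference of -0.15 (SE 0.18, interval -0.54 to 0.24). Egln3, often strongly induced by HIF, had 8.79, 9.66, 9.42 and 9.41 with vehicle and 9.35, 9.65, 8.93 and 8.81 with eltrombopag, a difference of -0.13 (SE 0.22, interval -0.62 to 0.35). In both genes number 1 ran opposite to numbers 3 and 4: eltrombopag minus vehicle was 0.43, -0.21, -0.38 and -0.44 for Egln1 and 0.56, -0.00, -0.49 and -0.60 for Egln3 in numbers 1 to 4. With numbers 1 and 2 only, Egln3 differed by 0.28 (SE 0.29), and with numbers 3 and 4 only by -0.54 (SE 0.13, unadjusted p 0.00625, adjusted p 0.997 in limma).

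Egln2, which is not known for induction by hypoxia, differed by a small amount. Its values were 8.01, 8.20, 8.10 and 8.16 with vehicle and 7.85, 7.99, 8.05 and 8.07 with eltrombopag. The groups overlapped between 8.01 and 8.07, and the difference was -0.13 (SE 0.094, interval -0.34 to 0.08). Hif1an had 7.76, 7.15, 7.58 and 7.03 with vehicle and 7.48, 6.96, 7.85 and 7.27 with eltrombopag. Arrays 1 and 3 were high and arrays 2 and 4 low in both groups, and the difference was 0.01 (SE 0.21, interval -0.45 to 0.48).

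**Figure D2:**
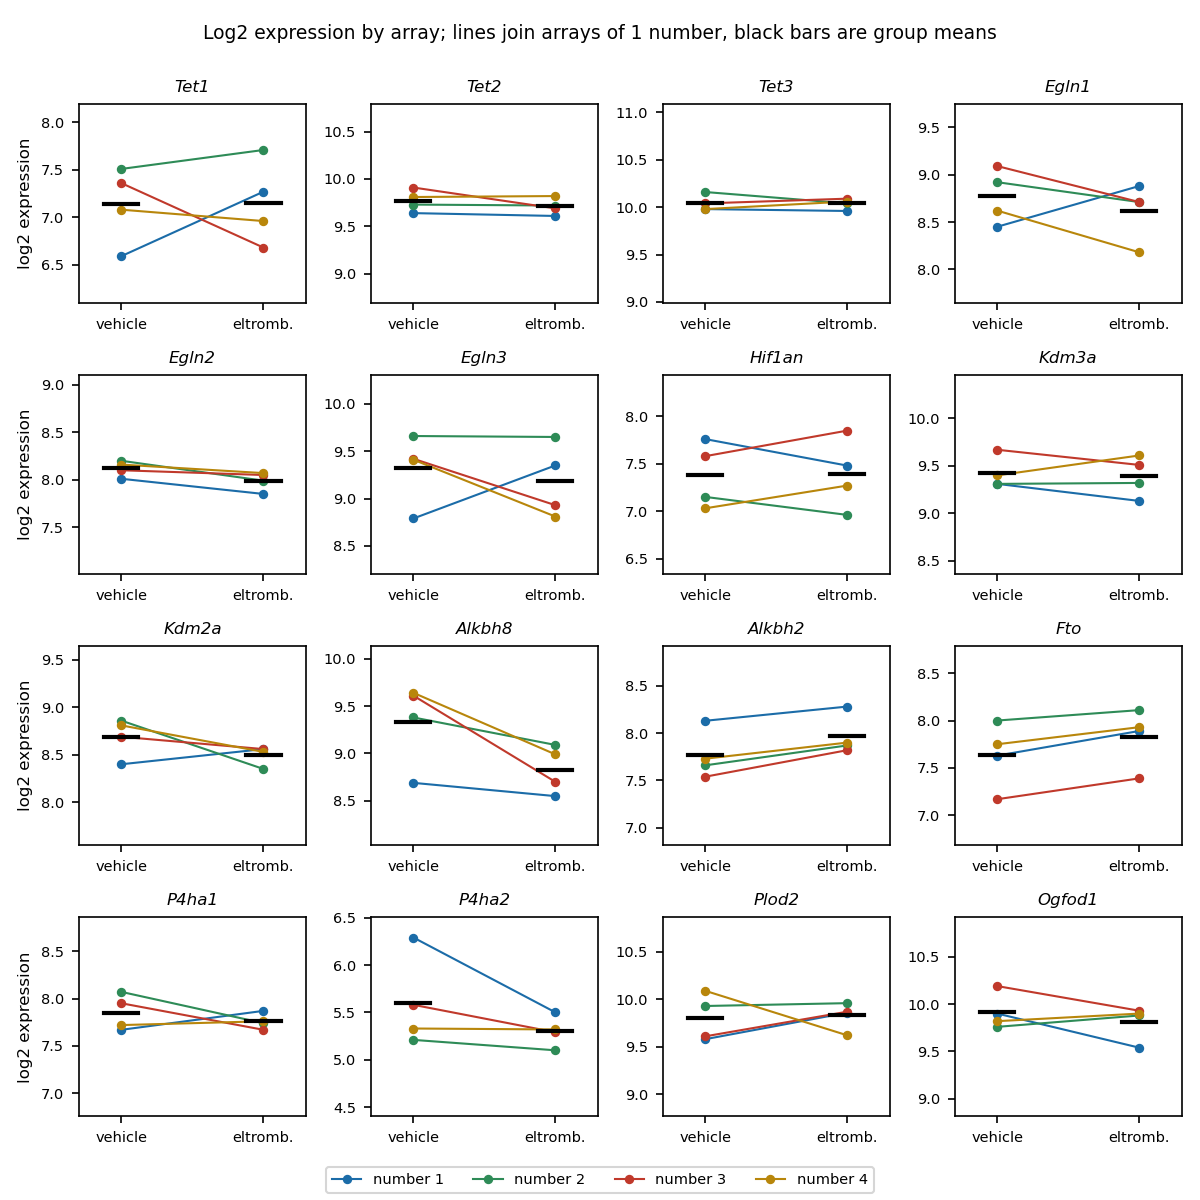
Log2 expression of 16 members in each array; lines join the vehicle and eltrombopag arrays of 1 number, black bars are group means (n = 4), and every panel spans the same height. The groups overlap in every panel; Alkbh8 runs downward in all 4 numbers, and Tet1, Egln1 and Egln3 run upward in number 1 and downward in number 3.

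Of the ALKBH and FTO enzymes 4 were higher and 4 lower. Alkbh8, which modifies the wobble uridine of transfer RNAs, showed the largest difference of all 38 members. Its values were 8.69, 9.38, 9.61 and 9.64 with vehicle and 8.55, 9.09, 8.70 and 8.99 with eltrombopag. Vehicle array 1 lay within the eltrombopag range, and the other 3 vehicle arrays lay above it. The vehicle arrays averaged 9.33 ± 0.44 (SD, n = 4) and the eltrombopag arrays 8.83 ± 0.25 (SD, n = 4). The difference was -0.50 (SE 0.21), a ratio of 0.708 (interval 0.515 to 0.975). The unadjusted p was 0.0367 and the adjusted p 0.99978 in limma. Pair by pair it differed by -0.14, -0.29, -0.91 and -0.65. With the replicate block its SE was 0.14 and its interval -0.83 to -0.17 (unadjusted p 0.00922, adjusted p 0.984 in limma).

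The difference of Alkbh8 depended on single arrays. It was -0.71 without vehicle array 1, with an unadjusted p of 0.000908 (adjusted p 0.996 in limma), and -0.36 without both arrays numbered 3, with an unadjusted p of 0.182. Leaving out any other single array gave -0.39 to -0.58. With numbers 1 and 2 only it was -0.21 (SE 0.28), and with numbers 3 and 4 only -0.78 (SE 0.15). It did not pass adjustment in any of these.

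Alkbh2 and Fto were higher without passing. Alkbh2, which repairs alkylated DNA, had 8.13, 7.66, 7.54 and 7.73 with vehicle and 8.28, 7.87, 7.82 and 7.90 with eltrombopag. The pairs differed by 0.15 to 0.28, while the arrays numbered 1 were the highest of each group. The difference was 0.20 (SE 0.15), and 0.087 was its SE with the replicate block (unadjusted p 0.0512, adjusted p 0.984 in limma). Fto, which removes methyl groups from adenosine in RNA, had 7.63, 8.0, 7.17 and 7.75 with vehicle and 7.89, 8.11, 7.39 and 7.93 with eltrombopag. Number 3 was the lowest and number 2 the highest in both groups, and the difference was 0.19 (SE 0.19; SE 0.087 and adjusted p 0.984 with the replicate block in limma). It was 0.04 without vehicle array 3 and 0.34 without eltrombopag array 3.

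Alkbh5, the other known demethylase of adenosine in messenger RNA, had 9.26 to 9.80 with vehicle and 9.33 to 9.77 with eltrombopag, a difference of -0.07 (SE 0.15). Alkbh3, which repairs alkylated DNA and RNA, had 8.0, 7.40, 7.88 and 7.78 with vehicle and 7.30, 7.60, 7.83 and 7.46 with eltrombopag. Its difference was -0.22 (SE 0.15), and number 1 alone gave -0.70. Alkbh4, Alkbh6 and the mitochondrial Alkbh7 differed by -0.04, 0.06 and 0.12.

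Collagen hydroxylases gave 2 of 5 genes higher and 3 lower. P4ha1, the main catalytic subunit of collagen prolyl hydroxylase and a HIF target with 3 cores in its promoter, had 7.67, 8.07, 7.95 and 7.72 with vehicle and 7.87, 7.74, 7.67 and 7.76 with eltrombopag. The eltrombopag values lay within the vehicle range, and the difference was -0.10 (SE 0.11, interval -0.35 to 0.15). P4ha2 had 6.29, 5.21, 5.58 and 5.33 with vehicle and 5.50, 5.10, 5.29 and 5.32 with eltrombopag. Vehicle array 1 stood highest, and the remaining arrays lay between 5.10 and 5.58, just above the arrays' mean lower quartile of 5.05. The difference of P4ha2 was -0.30 (SE 0.21), or -0.07 without vehicle array 1. Pair by pair it was -0.79, -0.11, -0.29 and -0.01.

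P4ha3, a further catalytic subunit, had 6.08, 5.22, 5.59 and 5.45 with vehicle and 5.52, 5.25, 5.24 and 5.41 with eltrombopag. Vehicle array 1 was again the highest, and the other arrays also lay just above the arrays' mean lower quartile. The difference of -0.23 (SE 0.17) was -0.06 without vehicle array 1. The lysyl hydroxylases Plod1 and Plod2, which prepare collagen for cross-links, differed by 0.10 (SE 0.14) and 0.03 (SE 0.14). Plod2, a HIF target, had 9.58, 9.93, 9.61 and 10.09 with vehicle and 9.86, 9.96, 9.87 and 9.62 with eltrombopag. Ogfod1, which hydroxylates a ribosomal protein, had 9.90, 9.76, 10.19 and 9.82 with vehicle and 9.54, 9.88, 9.93 and 9.90 with eltrombopag, a difference of -0.10 (SE 0.13).

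The 7 members known as HIF targets gave 2 higher and 5 lower, with a median difference of -0.096 (0 higher without eltrombopag array 2 or without vehicle array 1), and 0 of 7 had an unadjusted p under 0.05. By number, 5 of 7 were higher in number 1, 3 in number 2 and 2 each in numbers 3 and 4. The highest upper bounds were 0.35 for Egln3 and 0.33 for Plod2 on the log2 scale. Of 22 HIF targets outside the family, 12 were higher and 10 lower, with a median of 0.0066. Among them Aldoc, a glycolytic aldolase and the one with the smallest p, differed by -0.57 (SE 0.13, adjusted p 0.99978 in limma). Without overlap between groups, 1 of the 22 was lower, Aldoc, and 1 was higher, Ankrd37, beside 2.12% of all genes. Ankrd37 differed by 0.27 (SE 0.13, unadjusted p 0.0694 in limma). Its groups nearly met, at 7.41, 7.42, 6.84 and 7.28 with vehicle and 7.43 to 7.56 with eltrombopag, and vehicle array 3 was the low one.

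The arrays of 1 number were also compared with those of the other numbers, with group held as a term. limma's F-test called 0 of 38 members, beside 41 of 19505 genes (0.21%). At an unadjusted p under 0.05 stood 7 of 38 members (18.4%), against 10.2% of all genes: Fto, Alkbh2, Hif1an, Phf8, P4ha2, Kdm7a and Alkbh8. The smallest adjusted p was 0.229 in limma, for Fto, whose deviation from the group mean was 0.02, 0.32, -0.45 and 0.10 in numbers 1 to 4. Number 1 held the highest values for Alkbh2 (0.34) and P4ha2 (0.44) and the lowest for Phf8 (-0.44), Kdm7a (-0.32) and Alkbh8 (-0.46). Hif1an was high in numbers 1 and 3 (0.23 and 0.33) and low in numbers 2 and 4 (-0.33 and -0.24). This test treats the 2 arrays of a number as independent and does not say what a number stands for. Both arrays numbered 3 also held the high values of the Y-linked Uty and Kdm5d. A difference in the sex of the animals therefore cannot be told apart from number 3.

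**Figure D3:**
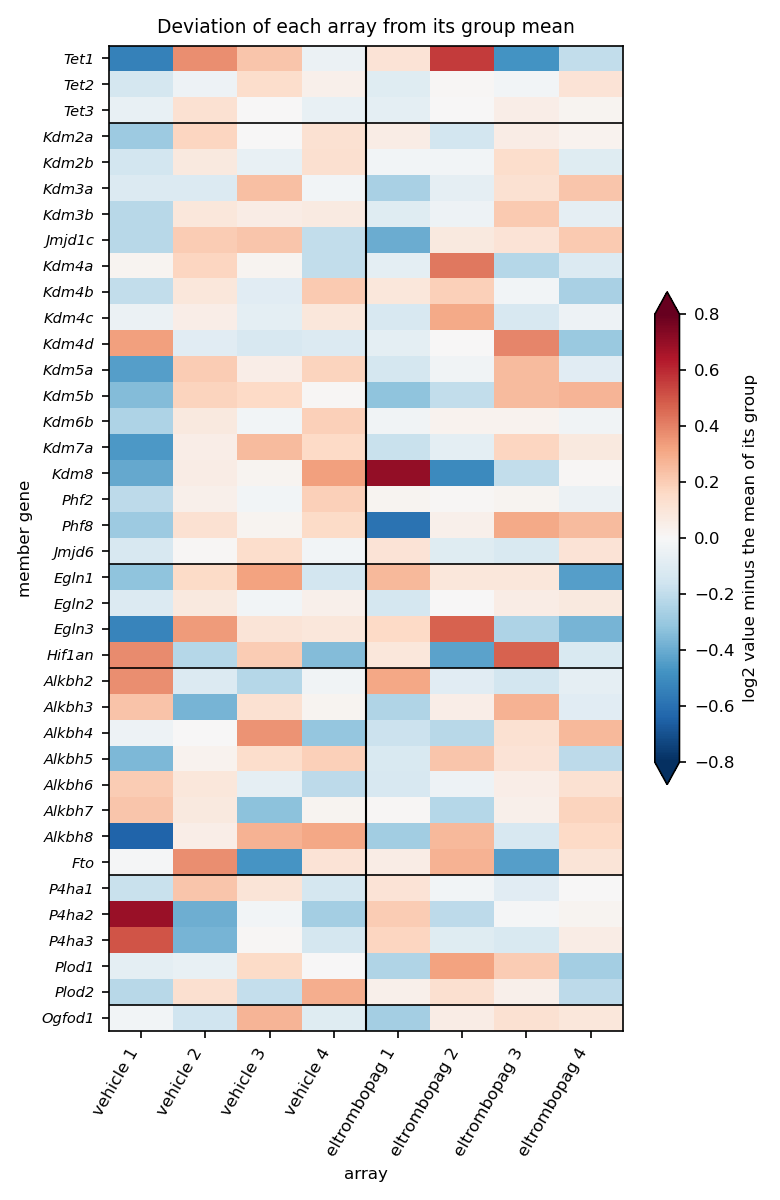
Deviation of each array from the mean of its group on the log2 scale, for the 38 members (rows, by role group between the horizontal lines) and the 8 arrays (columns); blue is below and red above the group mean, and colours end at 0.8. The column of vehicle 1 is blue in most TET and JmjC rows and red for P4ha2 and P4ha3.

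Vehicle array 1 held the lowest of the 4 vehicle values in 24 of 38 members (63.2%), against 25.7% of all genes. The other vehicle arrays were lowest in 4 or 5 members each. Among eltrombopag arrays, array 1 was lowest in 15 of 38 members (39.5%), against 23.9% of all genes. By role, vehicle array 1 was lowest for 3 of 3 TET genes, 13 of 17 JmjC genes, 3 of 4 HIF hydroxylases and 3 of 5 collagen hydroxylases. For the ALKBH and FTO genes it was lowest in 2 of 8 and highest in 4 of 8. Without vehicle array 1, 14 of 38 members were higher with eltrombopag in place of 21, and their median difference was -0.055 in place of 0.013.

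**Figure D4:**
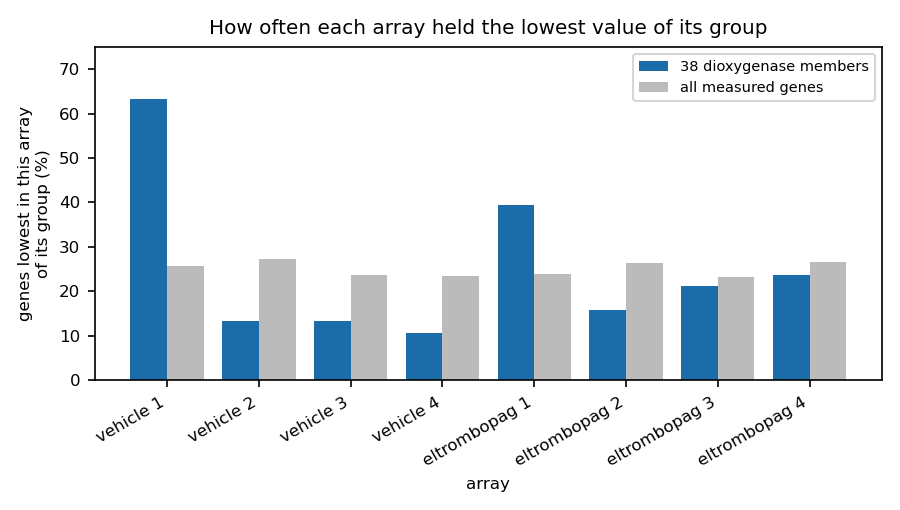
Share of genes (y axis, in percent) for which each array held the lowest value among the 4 arrays of its group, for the 38 members and for all 19505 genes. Vehicle array 1 reaches 63.2% of members against 25.7% of all genes, and eltrombopag array 1 reaches 39.5% against 23.9%.

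Other gene lists varied in how often vehicle array 1 was lowest. It was so for 7 of 25 other genes of the dioxygenase family, near the share over all genes, as for 4 of 14 genes of 2-oxoglutarate supply, 4 of 17 of iron and ascorbate supply and 4 of 16 collagen partners. It was lowest for 10 of 18 histone methyltransferases and flavin-dependent demethylases, 7 of 12 stem cell markers and 0 of 11 stromal and endothelial markers. Eltrombopag array 1 was lowest for 11 of the 25 other dioxygenase genes, against 39.5% of members and 23.9% of all genes. It was lowest for 2 of 14 genes of 2-oxoglutarate supply, 3 of 17 of iron and ascorbate supply and 4 of 16 collagen partners. For the histone list it was 8 of 18, for stem cell markers 9 of 12 and for stromal and endothelial markers 2 of 11. These lists were picked out after their counts were seen. The members' genes span a median of 43.6 kb on the chromosome, against 17.8 kb over all genes. Genes were split at the quartiles of their span. Of the 18 members above the upper quartile (45.5 kb), 16 were lowest in vehicle array 1, against 31.3% of all genes in that class. Below the lower quartile (6.11 kb) it was 0 of 3 members and 18.0% of all genes. The part of gene length, or of the mix of cells, in this pattern was not tested.

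Genes related to the members were counted in lists, none of which was tested against the members. Of 25 other genes of the dioxygenase family 13 were higher and 12 lower (median 0.015), and P3h2, a collagen prolyl hydroxylase, had the smallest p of them with a difference of 0.58 (SE 0.30). The X-linked demethylases Kdm6a and Kdm5c differed by 0.06 (SE 0.10) and 0.05 (SE 0.13). Of 14 genes that make or use 2-oxoglutarate 5 were higher and 9 lower (median -0.016), and Idh1 and Idh2, which make it from isocitrate, differed by -0.08 (SE 0.21) and -0.02 (SE 0.091). Of 7 genes that remove the inhibitory products succinate, fumarate and hydroxyglutarate, 3 were higher and 4 lower (median -0.027). The smallest p-values of these lists belonged to Idh3b, a subunit of mitochondrial isocitrate dehydrogenase, at -0.07 (SE 0.098), and Sdhb, a subunit of succinate dehydrogenase, at 0.16 (SE 0.095).

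Of 17 genes of iron and ascorbate supply 9 were higher and 8 lower (median 0.0024). Slc23a2 transports ascorbate, which keeps the iron of these enzymes reduced, and its group means were 10.88 ± 0.13 (SD, n = 4) for vehicle and 10.89 ± 0.18 (SD, n = 4) for eltrombopag. Slc11a2, an iron importer, had the smallest p of that list and differed by 0.38 (SE 0.12; limma adjusted p 0.99978), with no overlap between groups (7.66 to 8.05 with vehicle, 8.16 to 8.42 with eltrombopag). Slc40a1, the iron exporter, had the most negative difference of the list, -0.42 (SE 0.21, unadjusted p 0.0698 in limma without the replicate block). It had 8.70, 8.62, 9.36 and 9.31 with vehicle and 8.35, 8.24, 8.92 and 8.79 with eltrombopag, and was lower in each number. Other genes of the list lay near 0: Tfrc differed by 0.0024 (SE 0.12), Fth1 by 0.0065 (SE 0.094) and Ftl1 by -0.0028 (SE 0.084). HIF subunits and the VHL ligase gave 8 of 13 higher (median 0.0047), and Hif1a and Vhl differed by 0.03 (SE 0.19) and -0.09 (SE 0.23). The smallest p there was that of Elob, an adaptor of the VHL ligase, at 0.16 (SE 0.11). HIF and EGLN proteins were not measured here.

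The last lists hold writers, readers and erasers of the marks the members act on, and collagen genes. Of 11 DNA methylation genes 6 were higher (median 0.058), and Dnmt3a, a DNA methyltransferase, differed by 0.16 (SE 0.095). The groups did not overlap in 1 of the 11, the DNA methyltransferase Dnmt1, beside 2.12% of all genes. Dnmt1 differed by 0.13 (SE 0.094), at 9.74 to 10.0 with vehicle and 10.01 to 10.09 with eltrombopag. Histone methyltransferases and flavin-dependent demethylases were higher in 9 of 18 (median 0.012), writers and readers of methylated adenosine in 4 of 12 (median -0.0094), and collagen chains and collagen-folding genes in 8 of 16 (median 0.0062). Named for the smallest p of their lists, Cxxc4 differed by -0.35 (SE 0.16), the histone methyltransferase Ehmt1 by -0.15 (SE 0.11), Virma of the adenosine methyltransferase complex by -0.22 (SE 0.12) and the collagen chain Col1a2 by -0.25 (SE 0.16). In all these lists, 0 genes passed over all genes in limma. Without the replicate block, each list held at most 1 gene with an unadjusted p under 0.05. With the block, the list of iron and ascorbate supply held 2 such genes. The counts shifted with single arrays: with 1 array left out, 5 to 11 of the 17 iron and ascorbate genes were higher (5 without eltrombopag array 2), 6 to 11 of the 18 histone genes (6 without eltrombopag array 3) and 2 to 6 of the 12 genes of methylated adenosine (2 without eltrombopag array 3, eltrombopag array 4 or vehicle array 1).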

How the data were processed

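Per the submitters' processing notes, which name RMA, oligo and limma without versions, the authors deposited RMA values on the log2 scale. Per the labels' protocols, about 10 ng of RNA was amplified and labelled with a 3' IVT kit. RMA sets arrays to a common distribution, so differences in total RNA are removed before deposit. No source used here names the genome build of the probe sets.

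Of 22206 probe sets, 19572 carried 1 gene symbol, 0 several and 2634 none here. Where a gene had several, the probe set with the highest mean stood for it, which applied to 55 genes and to 0 members. No filter was set on dim genes. At the deposited precision, before rounding to 2 decimals, 0 probe sets held exactly equal values in any pair of arrays. limma 3.58.1 in R 4.3.3 (lmFit, eBayes, two-sided) was fitted on all 19505 genes with group as the only term, and an F-test on the replicate number with group as a second term. P-values were adjusted over all genes by Benjamini-Hochberg, with a threshold of 0.05. With 4 arrays a group, a member's 95% interval reached a median of 0.32 to either side. Scripts were tested on simulated data.

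The members and lists were chosen with earlier results of these data known. Of 235 entries in the gene lists, 211 matched. Values in full were given to the 2 members with the smallest p in each role and all TET genes and HIF hydroxylases. They were also given to the members known as HIF targets and the 6 members with the smallest p between numbers. Per list, the gene with the smallest p was given as well. Slc40a1, Ankrd37, Dnmt1, Kdm8, Uty and Kdm5d were named for their values, as were the cases flagged for a closer look. Other genes named with values were members or were chosen for their role. Gene span and single-array counts were added after the data were seen.

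Both groups carry replicate numbers 1 to 4 in the titles. Deviations from the group means correlated across genes at 0.232, 0.286, 0.181 and 0.133 for arrays of the same number, all over 0.1, and from -0.203 to 0.167 for different numbers. Treating arrays of 1 number as a pair rests on these correlations, because the labels do not state it. For numbers 1, 2 and 3 the same-number value was the highest of either array. For number 4 it was not. Vehicle array 3 with eltrombopag array 4 gave 0.167, and vehicle array 4 with eltrombopag array 3 gave 0.166. Both lay above the 0.133 of number 4 and below the 0.181 of number 3. The Y-linked Uty was at 7.71 (vehicle) and 6.98 (eltrombopag) in arrays 3, against 3.24 and 3.09 in arrays 4. It thus set both arrays numbered 3 apart from those numbered 4. Pair-by-pair differences and the replicate block rest on the numbers in the titles, and whether a number marks shared animals is not stated. Alternatives covered scaling, a filter on dim genes, array weights, variance moderation, probe set choice, the replicate block, subsets of numbers and leaving out arrays.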

Additional observations from a re-analysis of the deposited data

Results flagged for a closer look

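For each of the 38 members and both groups, which makes 76 sets of 4 values, the highest and lowest array were set against the other 3. In 6 sets 1 array stood apart, and about 3.8 would do so by chance (about 1 in 20).

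Vehicle array 1 stood apart in 2 of them: Kdm3b had 8.23 there while vehicle arrays 2 to 4 had 8.51 to 8.54 (a gap of 0.919 of the whole range), and Kdm4d had 5.04 against 4.59 to 4.62 (0.918). Eltrombopag array 1 stood apart in 2: Alkbh2 had 8.28 against 7.82 to 7.90 (0.837), and Ogfod1 had 9.54 against 9.88 to 9.93 (0.868). The remaining cases were Kdm2a in eltrombopag array 2, at 8.35 against 8.53 to 8.56 (0.857), and Phf2 in eltrombopag array 4, at 9.36 against 9.42 to 9.43 (0.846).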

How the results depend on the processing

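The count of called genes and of called members between eltrombopag and vehicle was 0 in all 22 alternatives, the replicate block among them, which changed no call and raised the genes with an unadjusted p under 0.05 from 650 to 904. Alkbh8 kept its direction in all of them. Of the 38 members 16 kept their sign in each alternative that held them. The others changed sign in at least 1, and the cause was not tested. With numbers 1 and 2 only 8 members changed sign, and with numbers 3 and 4 only 11; the members given in full among them follow. With numbers 1 and 2 only the difference turned to 0.11 for Egln1, 0.28 for Egln3 and -0.24 for Hif1an. With numbers 3 and 4 only it turned to 0.02 for Kdm3a, -0.19 for Kdm4b, -0.10 for Plod2, -0.40 for Tet1, 0.06 for Tet3 and -0.20 for the stem cell marker Procr, and the members' median was -0.013. Array weights turned Kdm4b (-5.2e-05) and Tet1 (-0.03), and quantile normalization turned Tet3 (0.0013). Leaving out 1 array or both arrays of a number moved the members' median between -0.055 and 0.039, Tet1 between -0.20 and 0.25, Tet3 between -0.03 and 0.04, Kdm3a between -0.11 and 0.05, Kdm4b between -0.09 and 0.17, Kdm7a between -0.05 and 0.19, Egln3 between -0.36 and 0.02, Hif1an between -0.14 and 0.16, and Plod2 between -0.06 and 0.19. The F-test between numbers called 0 members in each of its alternatives. Over all genes it called 198 with trend and robust moderation in place of 41, and 2 to 17 when arrays were left out, the fewest without both arrays numbered 3.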
